A study of Homo sapiens with 6 samples.

Results

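The amino acid transporter genes of OVCAR3 cells were examined after inhibition of the kinases CDK12 and CDK13. They were taken as every locus of the deposited table whose gene symbol belongs to the solute carrier families SLC1, SLC3, SLC6, SLC7, SLC36, SLC38 or SLC43. This rule found 59 loci among the 47577 of the table, and none of the 59 is joined with another gene. Of these, 35 reached the minimum for testing, which was a value of 10 or more in 3 or more of the 6 libraries. OVCAR3 is an established cell line of high-grade serous ovarian adenocarcinoma, so that all results come from a single tumor line in culture. Cells of 3 cultures received DMSO, the solvent, and cells of 3 cultures received 200 nM THZ531, a covalent inhibitor of CDK12 and CDK13, both for 6 h, and polyA RNA was sequenced. The sample titles give THZ531, but the treatment field gives THZ1, a related compound, at this dose. The comparison asks how the transcripts of the transporters respond to dual CDK12/13 inhibition. In bulk RNA, fewer cells that express a gene and less RNA per cell cannot be told apart.

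Cells take up most amino acids through these carriers. Exchangers of the SLC7 family, bound to the heavy chain SLC3A2 (CD98), trade intracellular glutamine for leucine and other large neutral amino acids, and they rely on glutamine brought in by SLC1A5 and by the sodium-coupled SLC38 carriers. Other members import glutamate, arginine, cystine, glycine, proline, taurine or creatine, and a few sit in the lysosomal membrane, where they let amino acids out and report their abundance to the kinase complex mTORC1. Tumor cells often carry high levels of SLC7A5, SLC3A2 and SLC1A5, and the ATF4 branch of the stress response is known to induce several of the transporter genes when amino acids are scarce.

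The libraries held 53054048 to 70986130 reads assigned to genes. The values below are the deposited normalized reads, and fold changes are on the log2(value + 1) scale, which understates the change of weakly expressed genes. All 8 markers of serous ovarian epithelium were above the minimum in at least 3 libraries. Their summed level was 435984 to 446692 in DMSO and 555188 to 567568 in THZ531. The keratins KRT7, KRT8 and KRT18 and the adhesion genes EPCAM and CDH1 were higher in each treated library, with KRT8 between 150111 and 155791 in DMSO and between 227329 and 232697 in THZ531. PAX8, a lineage factor, and MUC16 were lower in each, with PAX8 between 10645 and 11636 in DMSO and between 1161 and 1380 in THZ531, and the groups overlapped for WT1. Markers of other lineages had far lower summed levels in this single cell line. The T cell gene CD3E was at 0 in all 6 libraries, and the fibroblast gene DCN did not exceed 3.19. The summed level of 4 fibroblast markers, nearly all of it COL1A1, was 995 to 1086 in DMSO and 2140 to 2412 in THZ531, that of 4 leukocyte markers 407 to 503 and 406 to 490, and that of 3 endothelial markers 162 to 199 and 213 to 299. Whether these marker transcripts bear on the results was not tested.

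Upon treatment with THZ531, 3 of the 35 transporter genes increased and 9 decreased past both thresholds, namely a 1.5-fold difference and an unadjusted p not above 0.05 in limma. These 12 genes are 34.3% of the transporters tested, while 39.5% of all 17568 loci tested were regulated by the same rule. In the upward direction the share was 8.57% of the transporters against 15.7% of all loci, and in the downward direction 25.7% against 23.9%. The median log2 fold change was -0.14 for the transporters and -0.01 for all loci. With the adjusted p in place of the unadjusted one, 2 genes increased and 9 decreased, where 38.8% of all loci were regulated. At an adjusted p not above 0.05 and any fold, 21 of the 35 differed (68.6% of all loci did), 7 being higher and 14 lower, against 34.6% and 34.1% of all loci. Libraries of the 2 treatments did not overlap for 9 genes that were higher and 14 that were lower in THZ531, against 36.0% and 35.7% of all loci. The largest decreases were those of the glutamate carriers SLC1A1 and SLC1A3 and of the lysosomal arginine sensor SLC38A9. The largest increases past both thresholds were those of the cystine exchanger SLC7A11 and the glutamine carrier SLC38A5. SLC38A5 had few reads and was not called with the adjusted p (0.055, limma).

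**Figure D1:**
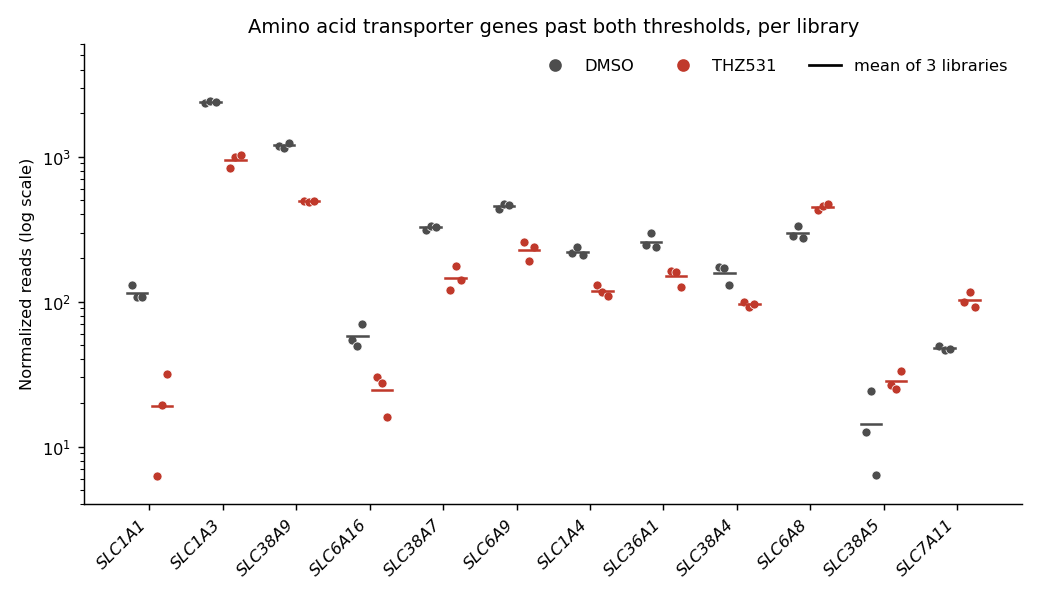
Normalized reads (log axis) of the 12 transporter genes past both thresholds, with each of the 3 DMSO libraries in grey, each of the 3 THZ531 libraries in red and the mean as a bar. The 12 genes were selected for a difference between the treatments, and for each the libraries of the 2 treatments do not overlap. Of all loci tested, 36.0% did not overlap upward and 35.7% downward. SLC1A1 fell the most, from 115 to 19.2.

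The most abundant transporters per exon length were the exchangers of large neutral amino acids and glutamine. In DMSO, SLC7A5 (LAT1) reached 6586 normalized reads per kb of exon in its GENCODE transcript, its heavy chain SLC3A2 4928, and SLC1A5 (ASCT2), the main glutamine importer of many tumor cells, 2771. SLC38A2, SLC38A10 and SLC38A1 followed with 1186, 979 and 906 reads per kb. None of these 6 genes passed the fold threshold with the deposited scaling, while SLC7A5 was called down with the same total, and SLC7A5, SLC3A2 and SLC38A10 with RPL34, the scalings described further on. The first of the regulated genes in this order was SLC1A3, ranked 7 with 612 reads per kb in DMSO and 243 in THZ531, and SLC38A9 came next with 476 and 195. Of the 3 genes that increased, SLC6A8 ranked at 15 of 35 in DMSO with 75.4 reads per kb, and the others lay near the lower end, SLC38A5 at 32 with 7.24 and SLC7A11 at 33 with 4.93 reads per kb.

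**Figure D2:**
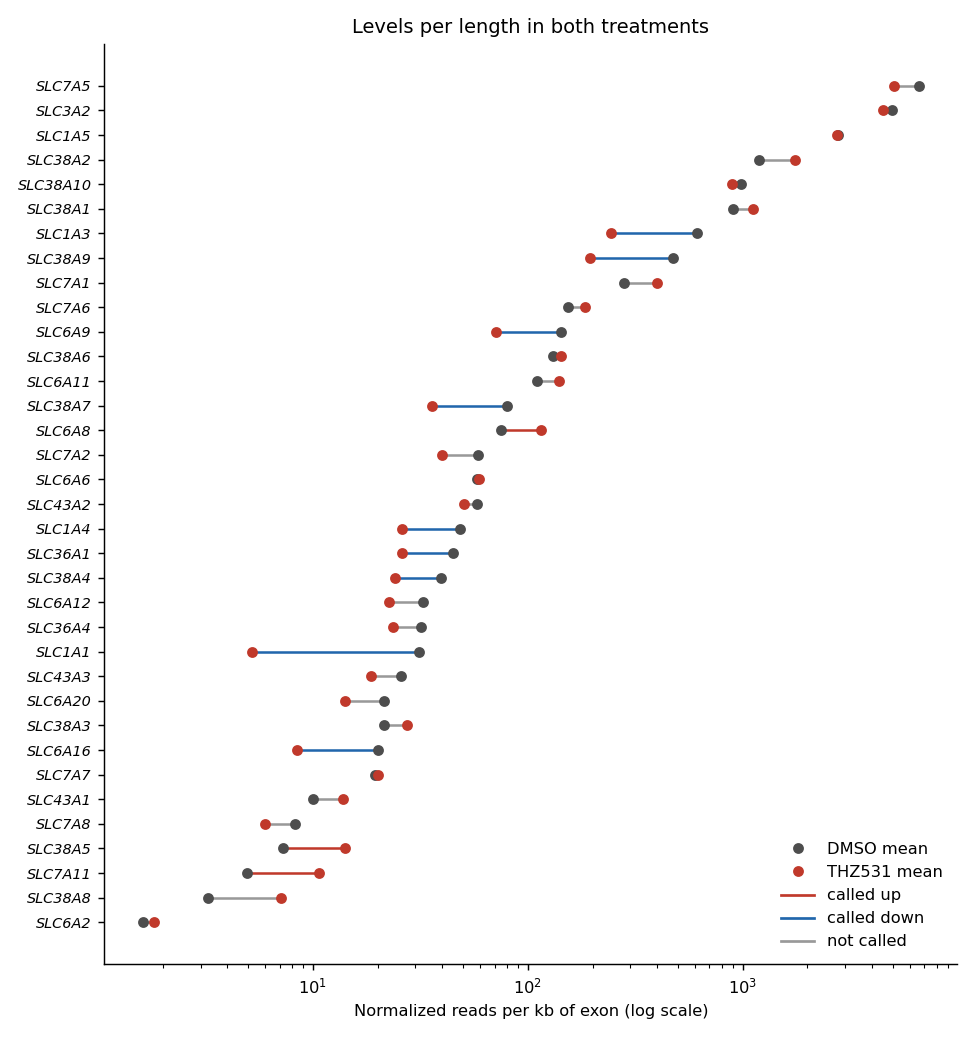
Mean normalized reads per kb of exon (log axis) of the 35 transporter genes in DMSO (grey points) and THZ531 (red points), ordered by the DMSO level, with lines colored by call. The 6 genes at the top, from SLC7A5 at 6586 to SLC38A1 at 906 in DMSO, were not called in either direction with the deposited scaling, and SLC7A5 was called down with the same total and with RPL34, as were SLC3A2 and SLC38A10 with RPL34.

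Both expressed glutamate and aspartate carriers decreased. SLC1A1 (EAAT3; chr9:4490440-4587469 on hg38), which also takes up cysteine, had 131, 109 and 107 normalized reads in DMSO and 6.30, 19.3 and 31.9 in THZ531. All THZ531 libraries lay far below all DMSO libraries, and relative to their level the THZ531 libraries differed more among themselves than the DMSO libraries did (log2 fold change -2.77, SE 0.43, adjusted p = 2.7e-05, limma). SLC1A3 (EAAT1; chr5:36606587-36688334), the glial glutamate carrier that many carcinomas also express, had 2359, 2442 and 2398 normalized reads in DMSO and 835, 991 and 1026 in THZ531. The highest treated library was far below the lowest DMSO library, and DMSO showed little spread (log2 fold change -1.34, SE 0.07, adjusted p = 1.5e-10, limma). The SLC1A1 locus shares 34084 bases with SPATA6L on the opposite strand, which had a log2 fold change of -0.33. The other 3 glutamate carriers were below the minimum.

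Of the related exchangers of small neutral amino acids, SLC1A4 decreased and SLC1A5 was not called. SLC1A4 (ASCT1), a carrier of serine and alanine, had 215, 238 and 209.8 normalized reads in DMSO and 129.7, 116 and 109 in THZ531. Its groups were well apart (log2 fold change -0.90, SE 0.15, adjusted p = 7.9e-05, limma). SLC1A5 had 8204, 7797 and 7953 normalized reads in DMSO and 7795, 7979.6 and 7848 in THZ531. Here the groups overlapped and the estimate was near 0 (log2 fold change -0.02, SE 0.04, adjusted p = 0.65, limma), and in the fits that left out a library it stayed between -0.037 and -0.00022.

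Among the heteromeric transporters, only the cystine carrier was called with the deposited scaling, and with RPL34 SLC7A5, SLC7A8 and SLC3A2 were called down. SLC7A11 (xCT; chr4:138164096-138242349), which exchanges glutamate for the cystine that feeds glutathione synthesis, had 49.2, 46.4 and 47.1 normalized reads in DMSO and 99.5, 117 and 92.2 in THZ531. Each treated library was higher than every DMSO library (log2 fold change 1.09, SE 0.23, adjusted p = 4.6e-04, limma), and SLC7A11 was the one member called up under all 20 settings, the 4 scalings included. Its heavy chain SLC3A2 had 10326, 9185 and 8358 normalized reads in DMSO and 8329, 8323 and 8752 in THZ531. The 2 groups of SLC3A2 overlapped, and DMSO replicate 1 was the highest of the 6 libraries (log2 fold change -0.13, SE 0.06, adjusted p = 0.06, limma). The SLC3A2 locus shares 12253 bases with ATL3 on the opposite strand, which had a log2 fold change of 0.57. SLC7A5, the main leucine exchanger and the most abundant member, had 29811, 29750.4 and 30459.5 normalized reads in DMSO and 22017, 22476 and 24460.1 in THZ531. All treated libraries were lower, at a fold change under 1.5 (log2 fold change -0.39, SE 0.04, adjusted p = 2.3e-07, limma). SLC7A6 (y+LAT2), which exports arginine against glutamine, had a log2 fold change of 0.25 (adjusted p = 0.0069) with groups that did not overlap, but -0.24 when scaled to RPL34. SLC7A8 (LAT2) and SLC7A7 (y+LAT1) had estimates of -0.43 (adjusted p = 0.31) and 0.04 (adjusted p = 0.9) in limma, with groups that overlapped. SLC7A7 lies inside the much more abundant DAD1 locus on the same strand, and SLC7A6 shares 3786 bases with SLC7A6OS on the opposite strand, so that reads of these pairs may be assigned to either gene.

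The cationic amino acid transporters, which carry arginine, lysine and ornithine, pointed in opposite directions, both under the fold threshold with all libraries and the deposited scaling. SLC7A1 (CAT1), the ubiquitous arginine importer, had 2146, 1949 and 2086 normalized reads in DMSO and 2859, 2859.9 and 3041 in THZ531. All its treated libraries were higher (log2 fold change 0.50, SE 0.05, adjusted p = 3.7e-07, limma). SLC7A2 (CAT2) had 496, 413 and 428 normalized reads in DMSO and 262, 294 and 358 in THZ531. All treated libraries of SLC7A2 were lower (log2 fold change -0.55, SE 0.13, adjusted p = 0.001, limma). Scaled to RPL34, the estimate of SLC7A1 was 0.011 and that of SLC7A2 -1.05, and SLC7A2 was called down with RPL34 and with the same total. With the deposited scaling SLC7A2 was called down without DMSO replicate 2 (-0.61) and without THZ531 replicate 3 (-0.68).

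No gene of the SLC43 family was called in limma with the deposited scaling, nor did any have an adjusted p at or below 0.05 in that fit, while SLC43A3 was called down with the same total and SLC43A2 and SLC43A3 with RPL34. SLC43A2 (LAT4) and SLC43A1 (LAT3), facilitators of leucine and other large neutral amino acids, had log2 fold changes of -0.21 (adjusted p = 0.12) and 0.38 (adjusted p = 0.4). SLC43A3, whose known cargo is purine bases, had -0.40 (adjusted p = 0.25), all in limma, and for these 3 genes the groups overlapped.

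**Figure D3:**
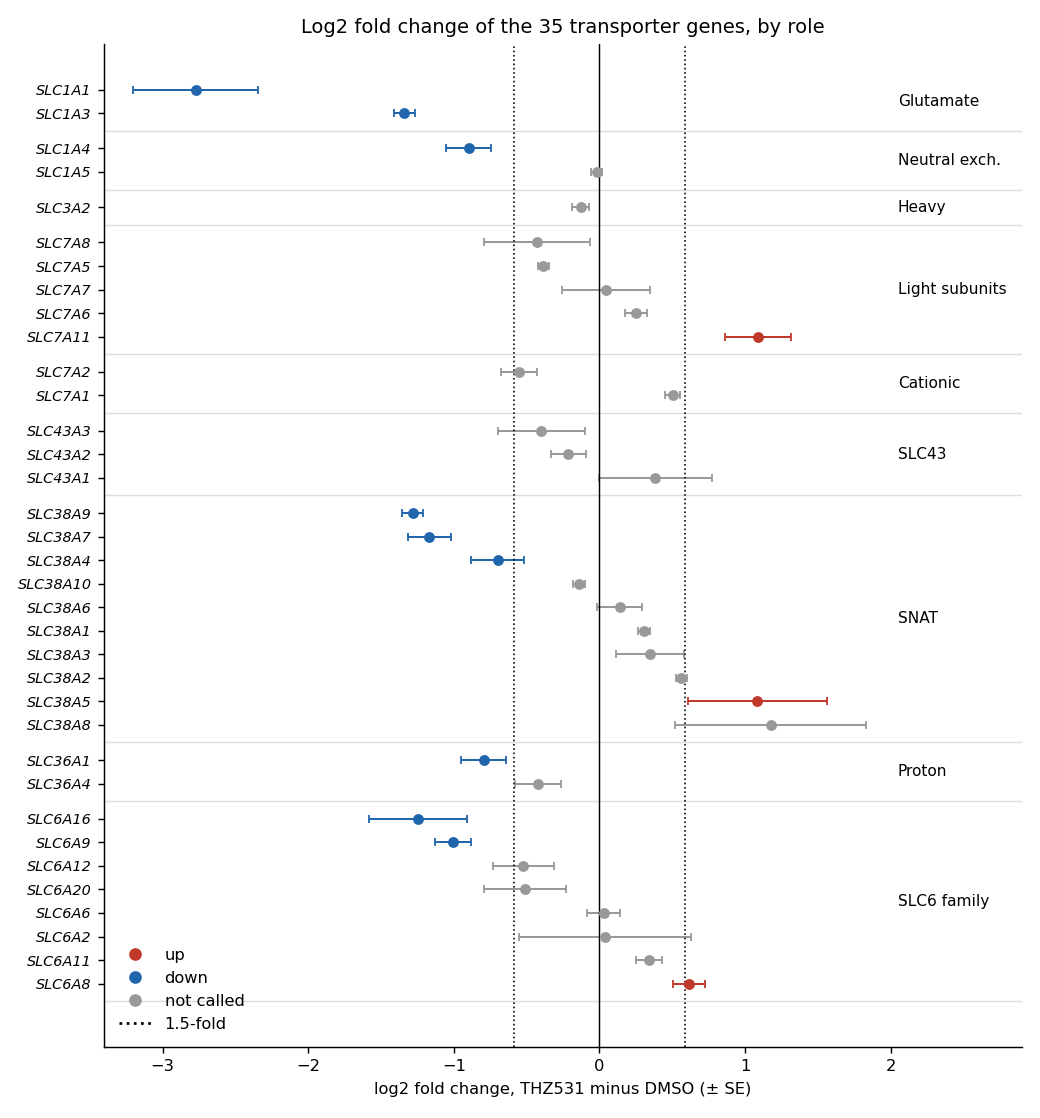
Log2 fold change of THZ531 against DMSO (x axis, ± SE, limma) for the 35 transporter genes, grouped by role, with genes called up in red, down in blue and the others in grey. Dotted lines mark a fold change of 1.5, and both expressed glutamate carriers lie below the lower line, at -2.77 and -1.34.

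The sodium-coupled SLC38 carriers made up the largest group with 10 tested genes, of which 1 increased and 3 decreased. As shares these are 10% and 30%, against 15.7% and 23.9% of all loci. SLC38A9 (chr5:55625774-55712335), a lysosomal carrier that signals arginine to mTORC1, had 1191, 1158 and 1253 normalized reads in DMSO and 496, 487 and 495 in THZ531. The treated libraries were within 10 reads of one another, all far below the lowest DMSO value (log2 fold change -1.28, SE 0.07, adjusted p = 2.8e-10, limma). SLC38A7 (chr16:58665109-58684770), which releases glutamine from lysosomes, had 310.4, 335 and 329.5 normalized reads in DMSO and 121, 175 and 141 in THZ531. Its groups were likewise apart (log2 fold change -1.17, SE 0.15, adjusted p = 3.9e-06, limma). SLC38A4, a carrier of neutral and cationic amino acids best known from liver and placenta, had 172, 171 and 130.1 normalized reads in DMSO and 99.5, 92.1 and 96.7 in THZ531. It was lower in each treated library (log2 fold change -0.70, SE 0.18, adjusted p = 0.0029, limma), and its locus is spanned in full by LOC100288798, which had a log2 fold change of 0.12. SLC38A5, a carrier of glutamine, serine and glycine, had 12.7, 24.1 and 6.38 normalized reads in DMSO and 26.4, 25.01 and 33.0 in THZ531. The groups did not overlap, but the recovered reads were only 16, 26 and 8 in DMSO and 21, 22 and 29 in THZ531, and the adjusted p was above 0.05 (log2 fold change 1.09, SE 0.48, adjusted p = 0.055, limma). It was called in 7 of the 19 settings in which it was tested, and among the fits that left out a library only in the one without DMSO replicate 2, where the estimate was 1.53.

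SLC38A2 and SLC38A1, the abundant glutamine and alanine importers of the family, stayed under the fold threshold. SLC38A2, which cells are known to induce when amino acids are withdrawn, had 5626, 5612 and 5825 normalized reads in DMSO and 8379, 8292 and 8514 in THZ531. Every treated library was higher, with an SD of 119 in DMSO and 112 in THZ531 (log2 fold change 0.56, SE 0.04, adjusted p = 1.8e-09, limma). The fold of 1.48 was just short of 1.5 with the deposited scaling. With the same total the estimate of SLC38A2 was 0.32, and with RPL34 it was 0.069. SLC38A1 had 7497, 7085 and 7416 normalized reads in DMSO and 8902, 8769 and 9477 in THZ531. The groups did not overlap (log2 fold change 0.30, SE 0.04, adjusted p = 6.7e-06, limma), but scaled to RPL34 the estimate of SLC38A1 was -0.19. SLC38A8, a weakly expressed glutamine carrier, had 6.35, 8.35 and 1.60 normalized reads in DMSO and 13.9, 11.4 and 10.2 in THZ531. It had the highest estimate of all members and did not pass the test, with recovered reads of only 8, 9 and 2 in DMSO and 11, 10 and 9 in THZ531 (log2 fold change 1.18, SE 0.66, adjusted p = 0.12, limma). SLC38A3, SLC38A6 and SLC38A10 had log2 fold changes of 0.35 (adjusted p = 0.2), 0.14 (adjusted p = 0.44) and -0.14 (adjusted p = 0.0062), and of these the groups did not overlap for SLC38A10, which was lower. SLC38A1, SLC38A2 and SLC38A4 are neighbors on chromosome 12, between 46183063 and 46825998, and with the scaling as deposited only SLC38A4 was called.

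The proton-coupled carriers SLC36A1 and SLC36A4 were both lower in THZ531. SLC36A1 (PAT1), which exports small amino acids from lysosomes, had 245, 296 and 238 normalized reads in DMSO and 162, 159 and 126 in THZ531. It passed both thresholds (log2 fold change -0.80, SE 0.15, adjusted p = 2.6e-04, limma). SLC36A4 (PAT4), a carrier of proline and tryptophan, had 169.9, 214 and 191 normalized reads in DMSO and 131, 158 and 139.9 in THZ531. It stayed under the fold threshold, also with groups that did not overlap (log2 fold change -0.42, SE 0.16, adjusted p = 0.028, limma), but it was called down with the same total (-0.66) and with RPL34 (-0.91).

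Of the 8 tested SLC6 genes, 1 increased and 2 decreased (12.5% and 25%, against 15.7% and 23.9% of all loci). SLC6A9 (GlyT1), the glycine importer, had 433, 475 and 463 normalized reads in DMSO and 257, 192 and 238 in THZ531. All treated libraries were lower (log2 fold change -1.004, SE 0.12, adjusted p = 2.5e-06, limma), and its locus shares 4930 bases with CCDC24 on the opposite strand, which had a log2 fold change of -0.42. SLC6A16, an orphan member with no settled substrate, had 54.8, 49.2 and 70.2 normalized reads in DMSO and 30.2, 27.3 and 15.9 in THZ531. It also decreased (log2 fold change -1.25, SE 0.34, adjusted p = 0.0037, limma). SLC6A8, the creatine transporter, had 282, 334 and 274 normalized reads in DMSO and 431, 459 and 469.9 in THZ531. It increased by slightly more than the threshold of 1.5-fold (log2 fold change 0.62, SE 0.11, adjusted p = 1.2e-04, limma), and it was not called without DMSO replicate 1 (log2 fold change 0.58) or without DMSO replicate 3 (0.56). Scaled to the same total its estimate was 0.37, and scaled to RPL34 it was 0.12.

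The other SLC6 genes were not called with the deposited scaling, while SLC6A12 and SLC6A20 were called down with the same total and with RPL34. Both lay close to the threshold in the deposited scaling too. SLC6A12 was called down without DMSO replicate 1 (-0.60) and without THZ531 replicate 2 (-0.63). SLC6A20 was called down by edgeR (-0.61) and DESeq2 (-0.60) on the recovered counts and without DMSO replicate 3 (-0.89), while without DMSO replicate 2 its estimate was -0.30. The carriers of betaine (SLC6A12), proline (SLC6A20) and GABA (SLC6A11) had log2 fold changes of -0.52 (adjusted p = 0.038), -0.51 (adjusted p = 0.12) and 0.34 (adjusted p = 0.0029), and the groups overlapped for SLC6A20 alone. Scaled to RPL34, the estimate of SLC6A11 was -0.15. Those of taurine (SLC6A6) and noradrenaline (SLC6A2) had estimates of 0.03 (adjusted p = 0.83) and 0.04 (adjusted p = 0.96). The SLC6A6 locus spans TMEM43 and LSM3 on the same strand and CHCHD4 and XPC on the other, so that its reads cannot be assigned to SLC6A6 with certainty. SLC6A2, with group means of 9.63 in DMSO and 10.8 in THZ531, had the lowest level per exon length of the 35 members.

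The 24 members below the minimum were at 0 in all libraries in 9 cases (among them SLC6A3, SLC6A5, SLC6A18, SLC7A4, SLC7A13, SLC36A2, SLC36A3 and SLC38A11). The other 15 reached at most 18.6 in any library. These were SLC1A2, SLC1A6, SLC1A7, SLC3A1, SLC6A4, SLC6A7, SLC6A13, SLC6A14, SLC6A15, SLC6A17, SLC6A19, SLC7A3, SLC7A9, SLC7A10 and SLC7A14. They include glutamate, dopamine and serotonin carriers of the brain and the epithelial carriers of kidney and gut.

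The calls of the members depended on how the libraries were scaled. The size factors used by the authors left a higher total of normalized reads in THZ531 than in DMSO. Scaling all libraries to the same total shifts THZ531 against DMSO by -0.24 on the log2 scale and the median of all loci to -0.25, and 1 member was then called up and 15 down. Scaling to RPL34, a ribosomal protein gene with a log2 fold change of 0.49 in the deposited values, shifts the median of all loci to -0.50, with 1 member up and 19 down. Upper-quartile scaling gave 3 up and 9 down, as did the deposited scaling. The 9 genes called down were called down under each of these 4 scalings, and SLC7A11 was called up under each of them as well.

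**Figure D4:**
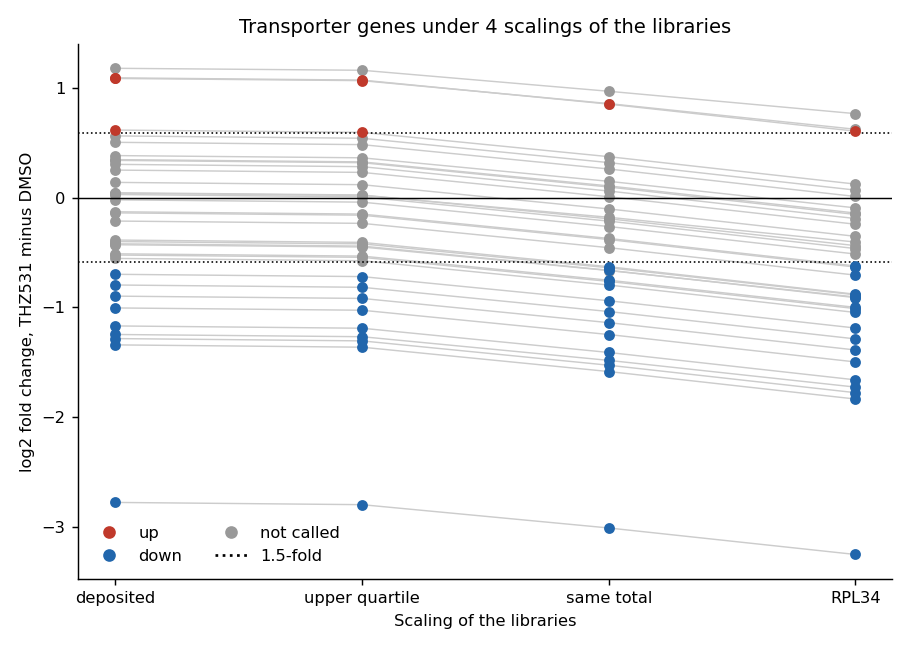
Log2 fold change of the 35 transporter genes (y axis) with the deposited scaling and with the libraries scaled to the upper quartile, to the same total and to RPL34 (x axis), each line being 1 gene and red, blue and grey marking genes called up, down or not called. All genes move down together toward the right, from 3 up and 9 down with the deposited scaling to 1 up and 19 down with RPL34.

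Regulated and other members were also compared by gene structure, as a description. The median span of the locus was 55388 bases for the 9 genes that decreased, 46570 for the 23 that were not called and 11722 for the 3 that increased. The median first intron of the GENCODE transcript was 10974, 2840 and 1538 bases long in the same order. The longest intron had medians of 14322, 12967 and 3034 bases, and the spliced length medians of 3919, 4491 and 3931 bases. The spans overlap widely, from 19662 to 97030 bases among genes that decreased and from 8668 to 78254 among those that increased.

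CDK12/13 inhibition is known to favor the use of polyadenylation sites inside introns, and the table lists loci without a symbol that lie inside genes. Inside the 59 members there were 25 such loci in 17 genes, and 6 of them passed the minimum. Of these 6, 2 increased and 2 decreased, against 31.1% and 25.3% of all 2290 unnamed loci tested. The table gives no strand for such a locus. Identifiers are numbered strand by strand, and the strand inferred from that order matched the annotated strand for 98.5% of 23237 named genes.

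The most abundant of these loci lies in SLC38A1. It spans chr12:46191740-46194602 on hg38, 2863 bases within the last intron of the GENCODE transcript (intron 16 of 16), on the minus strand like the gene, and it holds no exon of that transcript. It had 1948, 1903 and 2129 normalized reads in DMSO and 4727, 4786 and 5014 in THZ531. The treated libraries were all higher (log2 fold change 1.28, SE 0.05, limma), while SLC38A1 itself had 0.30. Relative to the reads of SLC38A1, the locus had 26.0%, 26.9% and 28.7% in DMSO and 53.1%, 54.6% and 52.9% in THZ531. This percentage rose from 27.2 ± 1.39 to 53.5 ± 0.91 (SD, n = 3; exact two-sided permutation test over libraries, p = 0.1, which is the lowest this design can give). The ratio within a library does not depend on the scaling.

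The locus holds 9 copies of the polyadenylation hexamer AATAAA on the strand of SLC38A1. The same hexamer was found in 77.9% of 384 windows of the same length along the introns of the tested members, with a median of 2 copies, and 16 windows (4.17%) held at least as many as the locus. The last copy is shown with 12 bases on either side, on the strand of the gene and with the hexamer in capitals, to place it in the locus.
Last copy, 344 bases before its end (chr12:46192072-46192101): atatctcaaaatAATAAAgagctatttatg
A match of these letters does not show that the site is used. The locus is also repetitive sequence. Elsewhere in hg38 there were 16937 matches of at least 1000 bases with at least 80% identity, the highest with 92.6%, whereas at 95% identity or more only 8 matches of at least 150 bases were found, the longest of 240 bases. Reads of other copies could be counted here only where they mapped to it, and their part was not tested.

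**Figure D5:**
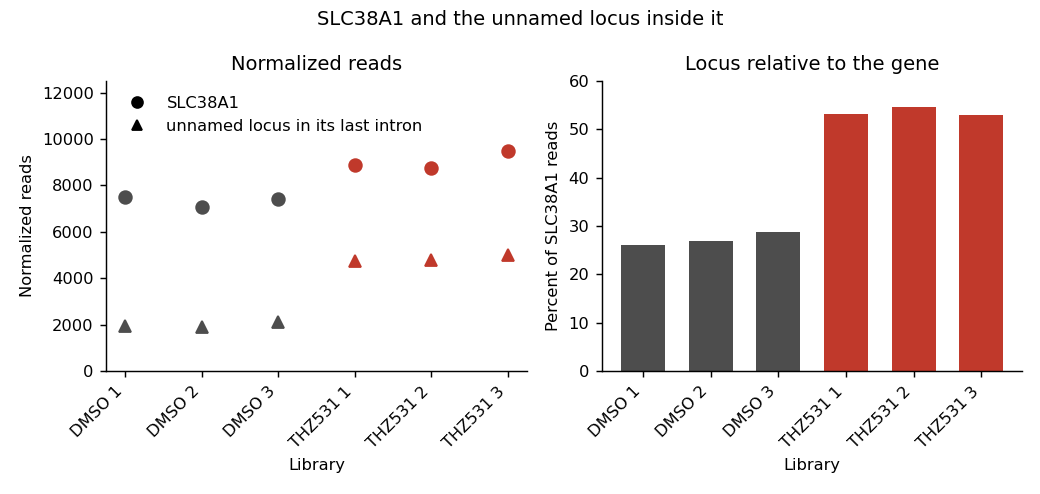
Left, normalized reads (linear axis from 0) of SLC38A1 (circles) and of the unnamed locus in its last intron (triangles) in each DMSO (grey) and THZ531 (red) library; right, the locus as a percentage of SLC38A1 reads in each library. The percentage lies between 26.0 and 28.7 in DMSO and between 52.9 and 54.6 in THZ531.

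The other nested loci had few reads. In the third intron of SLC1A3, a locus with 44, 33 and 16 recovered reads in DMSO had 0, 2 and 0 in THZ531, and it decreased as SLC1A3 did. GENCODE also lists the antisense gene SLC1A3-AS1 there, and reads of the 2 strands may not be told apart. In intron 7 of SLC6A16, a locus with 25, 12 and 13 recovered reads in DMSO had 6, 0 and 0 in THZ531, and it has a near copy elsewhere in hg38, with 98.1% identity over 1412 bases. In the first intron of SLC7A2, a locus with 5, 6 and 2 recovered reads in DMSO had 25, 19 and 11 in THZ531, opposite to SLC7A2 itself, which was lower in all treated libraries. The loci inside SLC7A5 and SLC6A6 were not called, with log2 fold changes of -0.20 and -0.52. A locus in the first intron of SLC7A1, below the minimum, was at 0 in the 3 DMSO libraries and had 3, 10 and 5 recovered reads in THZ531.

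Several transporter genes that answer to amino acid scarcity are known to carry an element bound by ATF4 and C/EBP factors. Its letters, TGATGNAA, were searched on both strands from 250 bases before to 50 bases after the RefSeq starts (GRCh38.p14). Of the 35 tested members, 28 had a promoter in the table, and 6 of these held the motif in a promoter (21.4%), against 4.46% of all genes in the table. Members have more promoters per gene in the table than genes in general. Counted by promoter, 6 of the 49 of members held it (12.2%), against 3.62% of all 35116. The windows of the 6 genes, the members with a match of these letters, are given on the transcribed strand with the motif in capitals. In SLC1A4 and SLC3A2 the match lies on the opposite strand, so that the capitals show its reverse complement.
SLC1A3 (chr5:36596357-36596386, 212 bases before the start): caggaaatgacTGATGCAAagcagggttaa
SLC1A4 (chr2:64989381-64989410, across the start): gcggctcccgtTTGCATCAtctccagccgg
SLC1A5 (chr19:46784893-46784922, 89 bases before the start): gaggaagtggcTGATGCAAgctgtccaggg
SLC3A2 (chr11:62881725-62881748, 37 bases after the start): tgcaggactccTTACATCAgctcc
SLC7A1 (chr13:29595663-29595692, 7 bases after the start): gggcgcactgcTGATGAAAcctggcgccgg
SLC38A1 (chr12:46266502-46266531, across the start): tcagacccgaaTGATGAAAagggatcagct
Of these 6 genes, SLC1A3 and SLC1A4 decreased and the other 4 were not called, with log2 fold changes between -0.13 and 0.50. A match of letters is no evidence of binding. The starts are RefSeq starts and need not be the end of the counted locus. The window of SLC1A3 lies before its counted locus (chr5:36606587-36688334). Those of SLC1A4, SLC1A5, SLC3A2 and SLC38A1 lie inside theirs. Which start the counted transcripts use was not tested. SLC7A11, SLC7A2, SLC43A3, SLC6A2, SLC6A6, SLC6A12 and SLC38A3 have no promoter in the table.

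ATF4 itself had 23489.9, 24477 and 25223 normalized reads in DMSO and 19659, 18961 and 20488 in THZ531. Every treated library was lower, at a fold change under 1.5 (log2 fold change -0.31, SE 0.04, adjusted p = 2.4e-06, limma). Its target ASNS, asparagine synthetase, had 1961, 1832 and 1791 normalized reads in DMSO and 2411, 2394 and 2538 in THZ531. ASNS was higher in each treated library (log2 fold change 0.40, SE 0.05, adjusted p = 7.0e-06, limma), but -0.10 when scaled to RPL34.

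The genes around the transporters were examined in 5 lists. Of 126 genes listed, 118 were tested, and 22 increased and 17 decreased (18.6% and 14.4%, against 15.7% and 23.9% of all loci). The median log2 fold change was 0.10. With the same total the counts were 11 up and 28 down, and with RPL34 5 up and 43 down.

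Among 8 tested transporters of other families, 1 (12.5%) increased and 3 (37.5%) decreased, against 15.7% and 23.9% of all loci. Their median was -0.29. The 3 that decreased all act on the lysosomal membrane. SLC15A4 (0.43, adjusted p = 7.0e-04, limma) and MFSD12 (0.18, adjusted p = 0.013, limma) of this list act there too. Both were higher, under the fold threshold. SLC66A1, which exports cationic amino acids, had 336, 356 and 302 normalized reads in DMSO and 78.1, 73.9 and 81.9 in THZ531 (log2 fold change -2.07, SE 0.15, adjusted p = 6.0e-09, limma). CTNS, which exports cystine, had a log2 fold change of -1.57 (adjusted p = 1.7e-07), and SLC17A5, which exports sialic acid and acidic amino acids, -1.52 (adjusted p = 9.4e-09). The vesicular glutamate carrier SLC17A7 increased (log2 fold change 0.81, adjusted p = 0.019, limma), from a mean of 42.9 to 78.6.

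Of 16 partners and trafficking regulators of the transporters, 4 (25%) increased and 1 (6.25%) decreased, against 15.7% and 23.9% of all loci. Their median was 0.43. With the same total 3 were up and 4 down, and with RPL34 1 up and 4 down with a median of -0.07. SGK1, a kinase that keeps several carriers at the cell surface, had 296, 312 and 328 normalized reads in DMSO and 1333, 1256 and 1419.8 in THZ531 (log2 fold change 2.09, SE 0.08, adjusted p = 5.4e-12, limma). The arrestins ARRDC3 and TXNIP, which help to internalize membrane proteins, increased, with log2 fold changes of 1.07 (adjusted p = 4.3e-09) and 0.99 (adjusted p = 7.0e-07). The ubiquitin ligase NEDD4 decreased, with -0.96 (adjusted p = 1.0e-07).

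Of 32 genes that sense amino acids upstream of mTORC1, 7 (21.9%) increased and 6 (18.8%) decreased, against 15.7% and 23.9% of all loci. Their median was -0.06. With the same total 3 were up and 8 down, and with RPL34 2 up and 14 down. Among those that decreased, KICS2 (-1.76, adjusted p = 7.3e-07) belongs to the KICSTOR complex, which recruits the inhibitory GATOR1 complex to lysosomes, and WDR59 (-1.58, adjusted p = 1.4e-09) to GATOR2, which opposes GATOR1. Among those that increased, RRAGB (1.69, adjusted p = 4.6e-11) encodes a Rag GTPase that docks mTORC1 on lysosomes, RNF152 (1.26, adjusted p = 3.0e-05) a ligase that inhibits Rag, and SESN2 (0.90, adjusted p = 8.4e-07) a leucine sensor. RRAGB had 413, 405 and 358 normalized reads in DMSO and 1319.9, 1219.7 and 1259 in THZ531, with groups far apart.

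In the amino acid deprivation response, 6 of 26 genes increased and 6 decreased (23.1% each), against 15.7% and 23.9% of all loci. Their median was 0.01. The split depended on the scaling, since 2 were up and 9 down with the same total, and 0 up and 11 down with RPL34 (limma), where the median was -0.48. EIF2AK4 (GCN2), the kinase that senses uncharged tRNA, had 4597, 4287 and 4175 normalized reads in DMSO and 1830.0, 1863 and 1755 in THZ531 (log2 fold change -1.26, SE 0.05, adjusted p = 6.2e-12, limma). DDIT3 (CHOP) and CHAC1, both targets of the pathway, also decreased, with -1.51 (adjusted p = 3.4e-07) and -0.85 (adjusted p = 3.9e-05). ATF3 and DDIT4, likewise targets, increased with 1.01 (adjusted p = 5.3e-09) and 0.82 (adjusted p = 3.5e-08), as did SESN2.

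In the metabolism of glutamine, serine, proline and cysteine, 5 of 37 genes increased and 1 decreased, with a median of 0.15. With the same total 4 were up and 4 down, and with RPL34 2 up and 11 down with a median of -0.33. OAT, which converts ornithine on the way to glutamate and proline, had 3249, 3129 and 3047 normalized reads in DMSO and 8187, 7532 and 7415 in THZ531 (log2 fold change 1.29, SE 0.05, adjusted p = 1.9e-12, limma). CTH, which makes cysteine from cystathionine and thus supplies the amino acid that SLC7A11 imports as cystine, increased, with a log2 fold change of 1.54 (adjusted p = 1.3e-10). GLUL, glutamine synthetase, increased with 0.87 (adjusted p = 3.0e-11), and PYCR3, which makes proline, decreased with -1.07 (adjusted p = 2.8e-06). The 12 genes named from the 5 lists as increased kept a positive log2 fold change under all 4 scalings, but not all kept the call. Scaled to RPL34, 7 of them fell below the 1.5-fold threshold, namely DDIT4 (0.32), SLC17A7 (0.33), GLUL (0.38), SESN2 (0.41), TXNIP (0.50), ATF3 (0.52) and ARRDC3 (0.58), and DDIT4 and SLC17A7 did so with the same total as well (both 0.57). OAT and CTH had 0.80 and 1.05 with RPL34.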

How the data were processed

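PolyA RNA of 6 OVCAR3 cultures was sequenced from TruSeq stranded mRNA libraries. Per the paper's methods and the labels, the authors aligned with STAR (hg38), counted on FAST DB genes with featureCounts, and deposited a single table of DESeq2-normalized reads, a signal that is never negative and not corrected for length. The strand setting of the counting is not given in the sources used here. The submitters' processing notes name STAR 2.7.5a. All values were whole multiples of 1 step per library (100% within 0.01 reads), so the counts behind the deposited values were recovered. The members and gene lists were chosen with earlier results of these data known, and members are named in full. From each list, up to 3 genes per direction with the largest change past both thresholds are named, and ATF4, ASNS and RPL34 serve as reference genes.

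Values were tested as log2(value + 1) with limma 3.58.1 (trended variance, R 4.3.3, no covariates) over the 17568 loci with 10 or more in 3 or more libraries. The call required a 1.5-fold difference and an unadjusted p not above 0.05, as in the study, and adjusted p-values are Benjamini-Hochberg values over all loci tested. Transcripts are from GENCODE 44, matched by symbol (35 of 35 members), and copies of sequences were searched with blastn 2.17.0. Exact tests used scipy 1.17.1. The fit was tested on simulated data. Alternatives were pseudocounts of 0.1 and 10, no minimum or 50, 3 other scalings, a replicate block, a 2-fold threshold, the adjusted p, limma with a constant prior variance, edgeR 4.0.16 and DESeq2 1.42.0 on recovered counts, and leaving out each library. The design text calls the replicates biological. Some items are not reported here.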

Additional observations from a re-analysis of the deposited data

How the results depend on the processing

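With the same total, 1 member was called up and 15 down, and 11 and 28 genes of the pathway lists. With RPL34 these counts were 1 and 19, and 5 and 43, and 4 nested loci were called down. At a fold change of 2 the list genes called were 7 up and 11 down. At a minimum of 50, 1 nested locus was called up and 0 down (limma), since only the loci in SLC38A1 and SLC7A5 were then tested. With each library left out, 1 to 3 members were called up and 9 to 10 down. The count of 1 up came without DMSO replicate 1 and without DMSO replicate 3, where SLC6A8 and SLC38A5 were not called. edgeR and DESeq2 on the recovered counts each called 2 members up and 10 down.

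The sign of the log2 fold change turned for members that were not called. With RPL34 it was -0.093 for SLC43A1, -0.19 for SLC38A1, -0.35 for SLC38A6, -0.44 for SLC7A7, -0.40 for SLC6A2, -0.24 for SLC7A6, -0.15 for SLC6A11, -0.46 for SLC6A6 and -0.14 for SLC38A3. With the same total it was -0.10 for SLC38A6, -0.19 for SLC7A7, -0.18 for SLC6A2 and -0.21 for SLC6A6. With a library left out it ranged from -0.084 (without DMSO replicate 2) to 0.18 for SLC7A7 (-0.06 without THZ531 replicate 1), from -0.34 to 0.45 for SLC6A2 (-0.11 without DMSO replicate 2, -0.0059 without DMSO replicate 3) and from -0.056 to 0.084 for SLC6A6 (-0.04 without DMSO replicate 3), and from -0.38 to 0.018 (without DMSO replicate 3) for the unnamed locus in SLC7A5. By construction each scaling multiplies a library by 1 factor, so that all loci move together. On the log2(value + 1) scale, loci with low values move by less. For the rest the cause was not tested.

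The replicate numbers are shared between the groups, but same-numbered libraries did not deviate together (correlations 0.0017, 0.019 and -0.039). These correlations cannot show whether cultures of the same number were handled together. With the replicate number as a block, 3 members were called up and 9 down, as without it. For the 35 members and the 6 nested loci under single alternatives, 702 log2 fold changes kept their side of the thresholds, 25 were newly called, 20 lost the call and 21 changed sign. SLC6A2, SLC38A5 and SLC38A8, with few reads, are limited by depth. In THZ531, SLC1A1 had only 5, 17 and 28 recovered reads and SLC6A16 24, 24 and 14. With a library left out, the estimate of SLC1A1 ranged from -3.25 to -2.17. Both genes were called down in every setting in which they were tested.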

Other observations

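Several of the genes that decreased encode carriers of the lysosomal membrane. This grouping was made after the values were seen and was not tested. Of 10 genes whose products are known to carry amino acids across that membrane, 9 passed the minimum, and 6 decreased and 0 increased past both thresholds (limma), with a median log2 fold change of -1.17. Of all loci, 23.9% were called down and 15.7% up. The 6 were SLC66A1 (-2.07), CTNS (-1.57), SLC17A5 (-1.52), SLC38A9 (-1.28), SLC38A7 (-1.17) and SLC36A1 (-0.80). SLC36A4 (-0.42) was lower without passing the fold threshold, and SLC15A4 (0.43) and MFSD12 (0.18) were higher at an adjusted p not above 0.05 in limma, also under the fold threshold. SLC7A14 was below the minimum. With upper-quartile scaling 6 genes of the group were called down, and with the same total or RPL34 there were 7. With RPL34 both SLC15A4 and MFSD12 turned negative (-0.06 and -0.31), and with the same total MFSD12 did (-0.06).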
